A study of Mus musculus with 20 samples.

Results

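Immunoglobulin variable gene segments were taken as the genes whose symbol starts with Ighv, Igkv or Iglv and whose deposited biotype is IG_V_gene, without pseudogenes. They number 216 of the 55421 genes counted, of which 113 belong to the heavy chain (Ighv), 100 to the kappa light chain (Igkv) and 3 to the lambda light chain (Iglv). RNA was sequenced from whole aorta of C57BL/6 mice at 2 and 28 months of age. At each age there were 5 libraries of Pparafl/fl, which carry a conditional allele of the fatty acid receptor gene Ppara, and 5 of Ppara△SMC, called the knockout below, which lacks Ppara in smooth muscle cells. The labels name neither the Cre line behind the deletion nor any pooling of aortas, so p-values measure the spread between these libraries.

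A B cell builds its antibody genes by joining 1 variable segment to joining segments, and in the heavy chain also to a diversity segment, so each B cell clone expresses 1 heavy and, as a rule, 1 light chain variable segment. Naive B cells carry many different segments at a low RNA level, whereas plasma cells, the antibody-secreting descendants of B cells, fill much of their RNA with the segment pair of their clone. In bulk RNA, the counts over variable segments therefore mix how many B lineage cells were present, how much immunoglobulin RNA each made and which segments their clones used. Fewer cells and less RNA per cell cannot be told apart in these data.

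The heavy segments lie on chromosome 12 between 113578504 and 116000461 (GRCm38, GENCODE M21), all on the minus strand. The kappa segments lie on chromosome 6 between 67555497 and 70704177, 38 on the plus and 62 on the minus strand. The 3 lambda segments lie on chromosome 16 between 19085017 and 19260859. In the annotation 214 segments have 2 exons and 2 have 1, and the summed exon length has a median of 359 bases, from 294 to 501. Of the 216 segments, 8 had no count in any library, 13 were counted in all 20 libraries and 200 reached 10 counts in at least 1 library.

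Segments of a locus resemble each other, which bears on how reads can be assigned. The pair that took the most kappa counts is shown first, as 290 bases of the GENCODE M21 transcripts in 5′ to 3′ direction, with capitals where the pair differs.
Igkv6-20: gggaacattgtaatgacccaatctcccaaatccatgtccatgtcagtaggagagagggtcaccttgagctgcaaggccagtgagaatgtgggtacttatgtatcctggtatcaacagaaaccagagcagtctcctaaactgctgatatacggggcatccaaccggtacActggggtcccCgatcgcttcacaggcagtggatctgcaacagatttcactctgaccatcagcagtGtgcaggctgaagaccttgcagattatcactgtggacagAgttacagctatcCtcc
Igkv6-29: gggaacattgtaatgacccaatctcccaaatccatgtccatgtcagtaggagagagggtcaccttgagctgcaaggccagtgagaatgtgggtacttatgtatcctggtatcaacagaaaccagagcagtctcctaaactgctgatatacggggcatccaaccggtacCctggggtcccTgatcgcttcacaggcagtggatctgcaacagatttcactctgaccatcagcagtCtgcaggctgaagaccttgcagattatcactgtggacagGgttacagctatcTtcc
These stretches differ at 5 of 290 bases (98.3% identity), and their longest identical run is 168 bases, or 253 bases over the whole transcripts. Counted from 1 at the 5′ end of the printed stretch, with Igkv6-20 first, the differences are A169C, C180T, G235C, A274G and C287T.

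The heavy segments that led the heavy counts in single 28-month libraries of each genotype, Ighv1-69 in Pparafl/fl replicate 4 and Ighv1-52 in knockout replicate 4, are shown in the same way.
Ighv1-69: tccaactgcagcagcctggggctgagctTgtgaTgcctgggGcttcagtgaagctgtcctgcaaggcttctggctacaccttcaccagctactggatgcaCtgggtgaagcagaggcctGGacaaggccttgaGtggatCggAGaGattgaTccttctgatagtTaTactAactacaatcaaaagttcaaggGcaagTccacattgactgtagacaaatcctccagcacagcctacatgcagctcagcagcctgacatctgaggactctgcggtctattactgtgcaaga
Ighv1-52: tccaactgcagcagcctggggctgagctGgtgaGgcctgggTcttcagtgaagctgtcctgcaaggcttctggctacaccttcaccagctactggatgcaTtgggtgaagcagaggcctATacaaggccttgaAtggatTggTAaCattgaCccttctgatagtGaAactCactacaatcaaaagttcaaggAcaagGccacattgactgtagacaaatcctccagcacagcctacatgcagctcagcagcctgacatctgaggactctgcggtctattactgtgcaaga
They differ at 17 of 290 bases (94.1% identity), with a longest identical run of 92 bases.

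Heavy segments end in a short conserved stretch that codes for the cysteine before the junction with the diversity segment. The last 60 bases of 6 other heavy segments that led a 28-month library are shown, with capitals at the motif TANNNCTGT.
Ighv2-6: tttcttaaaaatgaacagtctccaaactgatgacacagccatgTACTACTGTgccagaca
Ighv1-5: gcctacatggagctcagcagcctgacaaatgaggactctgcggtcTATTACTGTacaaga
Ighv1-26: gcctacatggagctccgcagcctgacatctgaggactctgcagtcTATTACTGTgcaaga
Ighv1-71: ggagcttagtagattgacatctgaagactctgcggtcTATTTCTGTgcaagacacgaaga
Ighv1-78: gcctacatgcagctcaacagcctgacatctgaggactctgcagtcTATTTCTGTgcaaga
Ighv1-80: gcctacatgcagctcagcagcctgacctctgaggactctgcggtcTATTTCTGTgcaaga
Searched on both strands of the last 60 bases, the motif was present in 102 of 113 heavy (90.3%), 59 of 100 kappa and 3 of 3 lambda segments, and in 2116 of 55007 other genes (3.85%). A match is a description of these letters only.

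Identical stretches were common. Of the 216 segments, 135 shared at least one 75-base window with another variable segment, and 6 shared over 50% of their windows. Ighv1-71 shared 97.2% of its windows with Ighv1-62-2, from which it differs at 1 of 359 aligned bases. How the authors' counting treated reads that map to several segments is not given in the sources used here, so counts of such pairs are uncertain between their members.

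Summed over all 216 segments, the RNA level was higher at 28 than at 2 months in both genotypes. Levels are given as CPM, the counts per 1000000 counts of a library. In Pparafl/fl at 2 months, replicates 1 to 5 held 374, 284, 290, 191 and 150 CPM. In Pparafl/fl at 28 months they held 820, 831, 1880, 1342 and 1215 CPM. No library of one age reached into the range of the other, and the median was 4.27 times higher at 28 months.

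In the knockout at 2 months, replicates 1 to 5 held 7.13, 140, 137, 16.8 and 76.8 CPM. At 28 months they held 833, 645, 738, 4309 and 796 CPM. The ages again did not overlap, and the median was 10.4 times higher at 28 months. Replicate 4 at 28 months stood far above the other libraries of its group, and replicates 1 and 4 at 2 months stood far below theirs. Those last libraries were also low in markers of B cells, T cells and lymph node stroma. In replicates 1 and 4, 5 B cell markers summed to 8.66 and 5.53 CPM (190 to 386 CPM in young Pparafl/fl), 10 T cell markers to 5.76 and 8.79 CPM (141 to 246 CPM), and 5 markers of lymph node stroma and vessels to 8.26 and 5.74 CPM (46.7 to 181 CPM). Knockout replicate 4 at 28 months was also the highest of its group in T cell markers (518 CPM, next 206), macrophage markers (4156 CPM, next 2556) and lymph node markers (574 CPM, next 282). In B cell markers it held 564 CPM, below replicate 1 of its group with 1160 CPM. The part of these cells in the variable segment levels was not tested. The sums over the segments were taken over members chosen with earlier results known and carry no test.

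Between the genotypes, the Pparafl/fl median was 3.7 times that of the knockout at 2 months, where the highest knockout library (140 CPM) lay just under the lowest Pparafl/fl library (150 CPM). At 28 months the Pparafl/fl median was 1.53 times that of the knockout, and the groups overlapped.

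**Figure D1:**
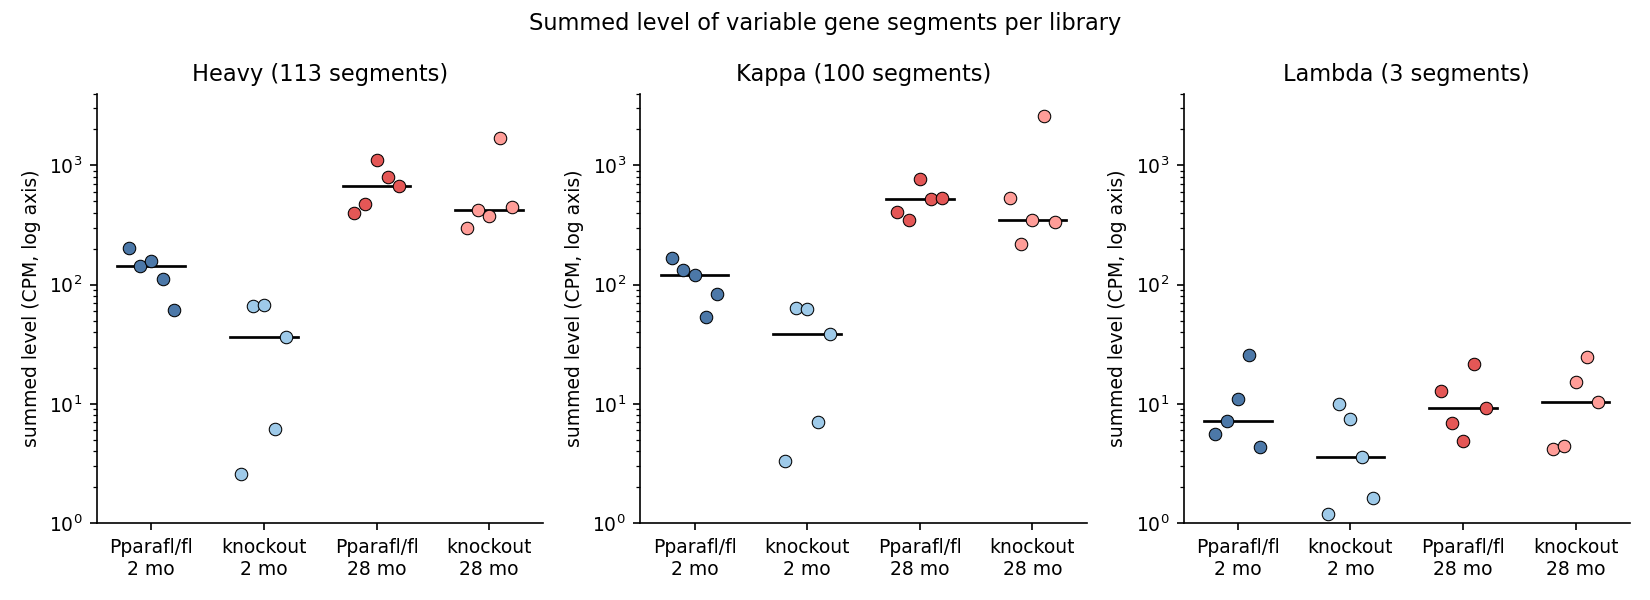
Summed CPM of heavy, kappa and lambda variable segments (log axis) in each library, with 1 point per library in replicate order and a line at the group median. Heavy and kappa sums of the 28-month libraries lie above those of the same genotype at 2 months without overlap, whereas the lambda sums overlap between all groups.

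The age difference lay mainly in the heavy and kappa loci. For heavy segments the median ratio of 28 to 2 months was 4.7 in Pparafl/fl and 11.5 in the knockout, and for kappa segments it was 4.36 and 9. For the 3 lambda segments it was 1.29 and 2.88, with overlapping libraries. Lambda chains are the minor light chain class of the mouse. Lambda segments held 3.23, 5.1, 8.35, 32.7 and 4.97% of the light chain variable counts in Pparafl/fl at 2 months. At 28 months the share was 3.07, 1.96, 0.635, 3.95 and 1.72%. It was 26.2, 13.6, 10.8, 33.4 and 4.03% in the knockout at 2 months and 0.785, 1.99, 4.19, 0.936 and 2.94% at 28 months. The groups overlapped narrowly in each genotype. The knockout library with 26.2% rests on 66 lambda and 186 kappa counts, and its Wilson 95% interval runs from 21.1 to 31.9%; this and the intervals below cover counting error only.

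Among the lambda segments, Iglv3 was called in neither age comparison, with a log2 fold change of -0.18 (SE 0.39, adjusted p of 0.819 in edgeR's quasi-likelihood test) in Pparafl/fl and 1.08 (SE 1.03, adjusted p of 0.578) in the knockout. In the 32.7% lambda library, Pparafl/fl replicate 4 at 2 months, Iglv2 had 1137 counts, beside 24 to 90 in the other libraries of the group. Its 3333 kappa counts were also the lowest of the group, whose other libraries had 6100 to 12223. Iglv1 had between 57 and 137 counts in these 5 libraries. Iglv1 and Iglv2 are 96.7% identical over 366 aligned bases.

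Most segments had their highest level in an old aorta. Of the 200 segments with at least 10 counts in a library, 190 were highest in a 28-month library, 55 of them in knockout replicate 4 and 38 in Pparafl/fl replicate 3. The 28-month libraries held 39077 to 342068 variable counts and the 2-month libraries 396 to 27515. The count of 190 thus largely restates the difference in summed level. For 43 of the 200, a single library held over 50% of the CPM summed over all 20 libraries, and for 12 of these it was knockout replicate 4 at 28 months. Which segment was high thus differed from library to library. Shares of all genes are not given beside the counts of 190 and 43.

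Levels between segments were compared as CPM per kilobase of exon, averaged over the 20 libraries. Igkv6-20 (chromosome 6, 70335841 to 70336507, minus strand) led the kappa locus with 250 CPM per kilobase, and 80.8% of its CPM came from knockout replicate 4 at 28 months. Igkv10-96 followed with 61.5 CPM per kilobase and Igkv1-135 with 35.7, then Igkv4-57 with 32.9, Igkv14-126 with 31.9, Igkv6-29 with 30.9, Igkv1-117 with 28.5 and Igkv9-120 with 27.1. In the heavy locus, Ighv1-52 (chromosome 12, 115145487 to 115145919) had 71 CPM per kilobase and Ighv1-69 (115623161 to 115623595) had 70.1. Ighv1-52 drew 82.7% of its CPM from knockout replicate 4 and Ighv1-69 drew 90.4% from Pparafl/fl replicate 4, both at 28 months. Ighv1-78, Ighv1-76, Ighv1-53, Ighv3-6, Ighv2-6 and Ighv1-26 followed with 49.1, 34.6, 34.2, 31.8, 29.5 and 28.3 CPM per kilobase. Ighv3-6 was the most evenly spread of these, with at most 16.3% of its CPM in 1 library and counts in all 20.

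In young Pparafl/fl aortas no heavy segment dominated. The first-ranked heavy segment was Ighv3-6 in replicates 1 and 3, with 8.67% and 9.7% of heavy variable counts, Ighv1-18 in replicate 2 with 11.7%, Ighv6-6 in replicate 4 with 13.3% and Ighv1-9 in replicate 5 with 8.76%. In the young knockout, Ighv8-8, Ighv1-81 and Ighv1-18 led replicates 2, 3 and 5 with 6.44%, 5.95% and 9.41%. Replicates 1 and 4, low in lymphoid RNA, were led by Ighv14-2 with 15.3% (22 of 144 counts) and Ighv10-1 with 29.6% (128 of 433 counts).

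Old aortas held libraries in which 1 heavy segment took a large part of the counts. In Pparafl/fl at 28 months the first segment was Ighv11-2 with 9.03%, Ighv2-6 with 35.6%, Ighv1-5 with 13.4%, Ighv1-69 with 55.9% and Ighv1-78 with 14.9% in replicates 1 to 5. The Ighv1-69 share was 23398 of 41845 counts, with a Wilson 95% interval from 55.4 to 56.4%. In the knockout at 28 months it was Ighv1-80 with 23.4%, Ighv1-26 with 24.7%, Ighv1-34 with 17.1%, Ighv1-52 with 24.3% and Ighv1-71 with 26.6%. All 5 old knockout libraries lay above all 5 young Pparafl/fl libraries in this share, a comparison in which both age and genotype differ. They overlapped with old Pparafl/fl and with the young knockout, where replicates 1 and 4 had 15.3% and 29.6%. The 10 libraries at 28 months were led by 10 different heavy segments. In the library led by Ighv1-71 with 7015 counts, the second segment was its near-identical copy Ighv1-62-2 with 2400 counts.

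Kappa counts were led by fewer segments. Igkv10-96 was first in 7 of the 20 libraries, 2 of young Pparafl/fl, 1 each of the young knockout and old Pparafl/fl, and 3 of the old knockout. Igkv6-20 was first in Pparafl/fl replicate 4 at 28 months with 43.1% and in knockout replicate 4 at 28 months with 58.6% of kappa counts (120462 of 205542, Wilson 95% interval from 58.4 to 58.8%). In the former library the leading heavy segment was Ighv1-69 and in the latter Ighv1-52. The near-identical Igkv6-29 was also high there, at 2055 beside 11916 counts in the former and 13906 beside 120462 counts in the latter.

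**Figure D2:**
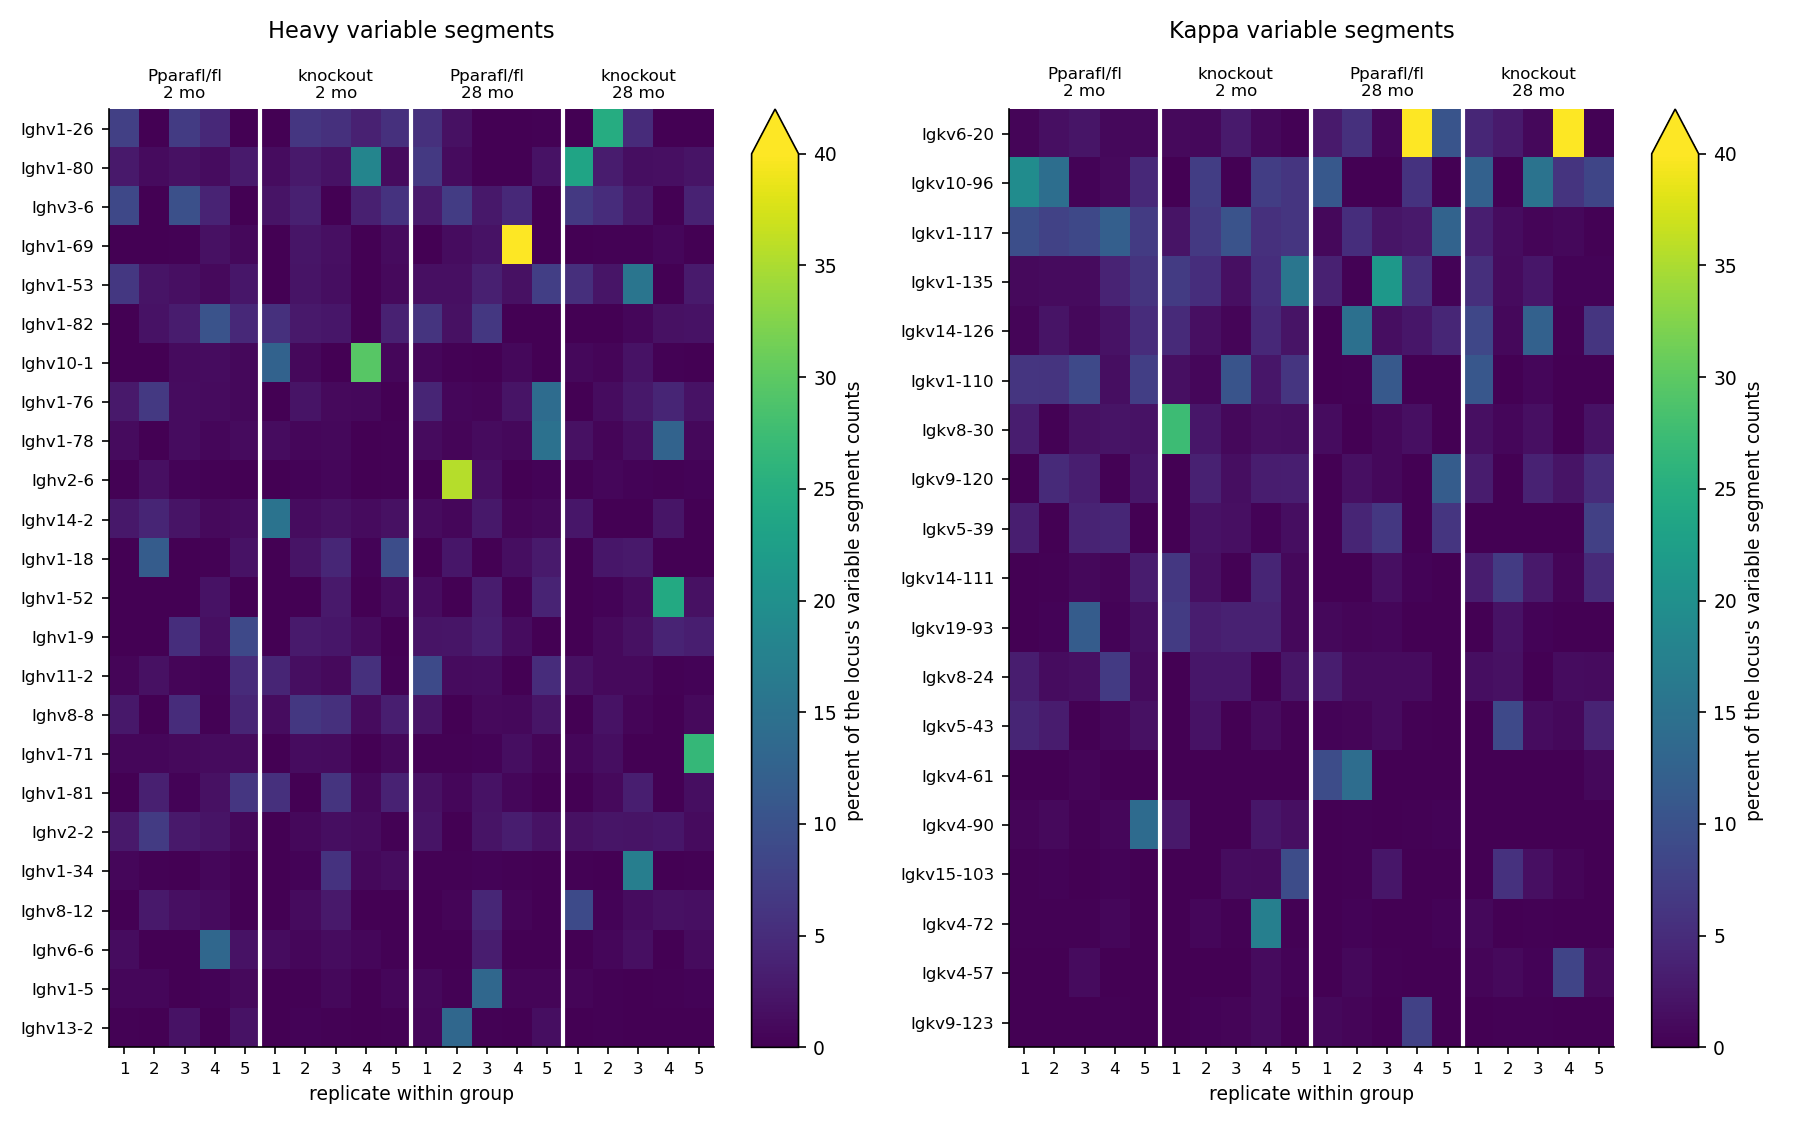
Percent of the heavy (left) or kappa (right) variable counts of each library held by the segments ranked first or second in any library, up to 24 per locus, with libraries in columns by group and replicate and the colour scale ending at 40%. Bright cells mark Ighv1-69 and Igkv6-20 in Pparafl/fl replicate 4 and Igkv6-20 in knockout replicate 4 at 28 months.

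The spread over segments was summarised as the effective number, the inverse of the summed squared shares, which equals the number of segments if all are used equally. For heavy segments it was 27.8, 26.1, 28.7, 21.5 and 32.2 in young Pparafl/fl and 29.4, 6.44, 23.7, 3.1 and 16.3 in old Pparafl/fl. In the young knockout it was 11.1, 39.9, 36.9, 7.08 and 30.9, and in the old knockout 12.4, 12.6, 14.3, 10.9 and 11. The old knockout libraries lay below each young library other than knockout replicates 1 and 4, whereas old Pparafl/fl overlapped with young. For kappa segments the groups overlapped throughout, and the lowest values were 4.79 in Pparafl/fl replicate 4 and 2.77 in knockout replicate 4 at 28 months.

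**Figure D3:**
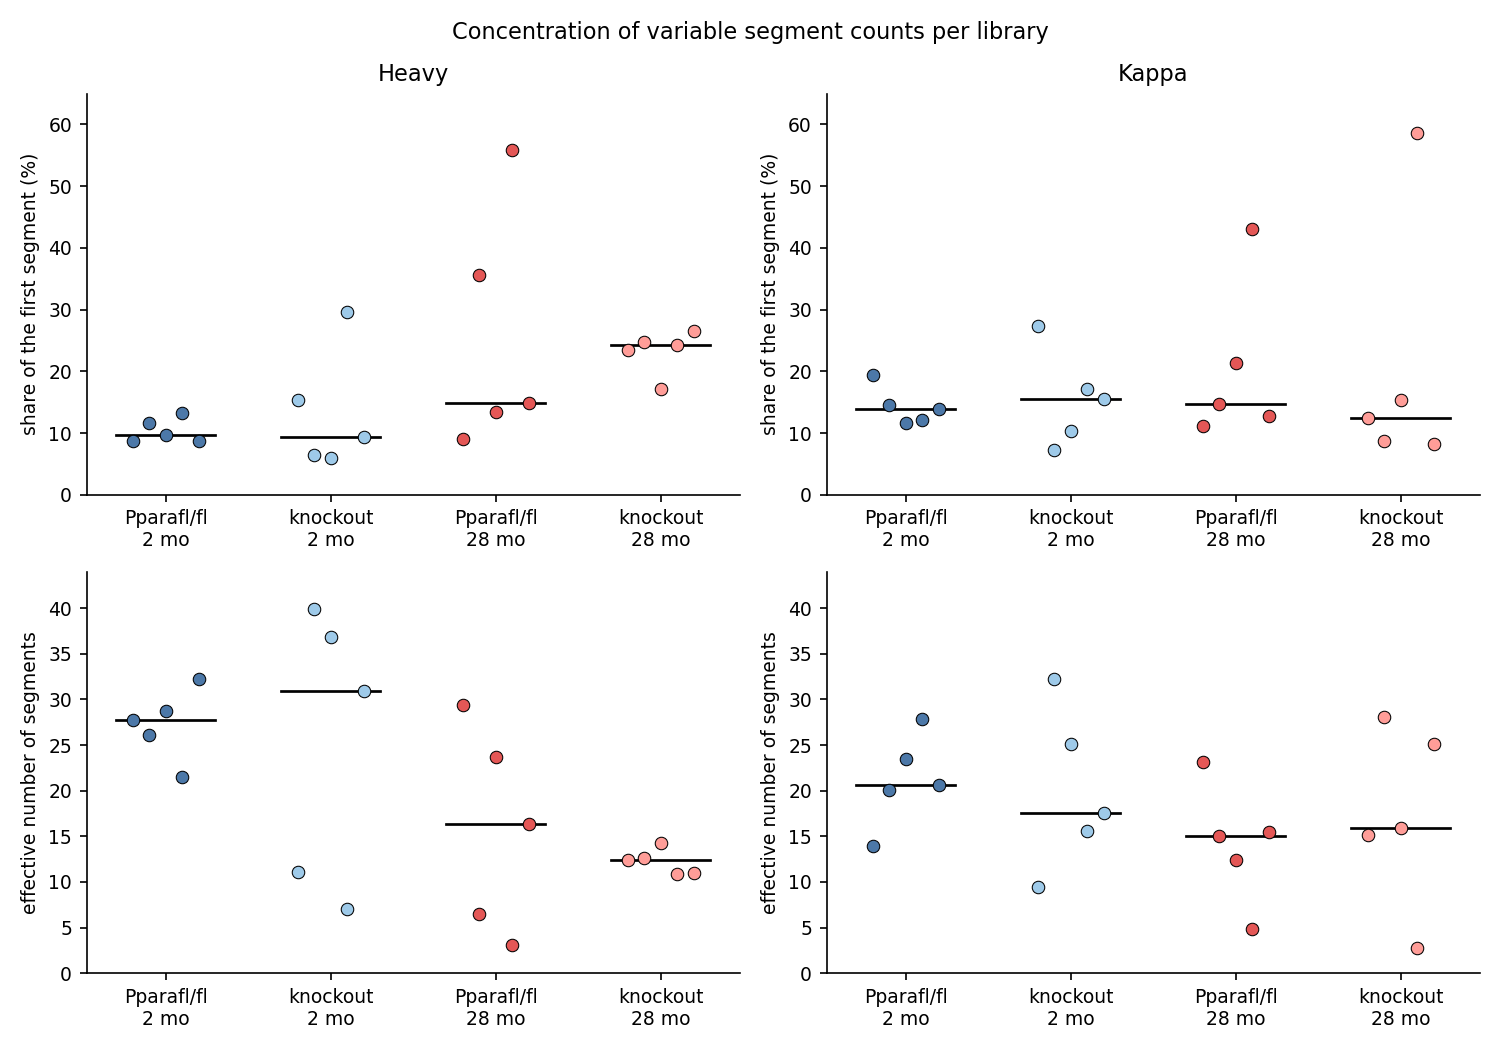
Share of locus counts in the first-ranked segment (top, percent) and effective number of segments (bottom) for heavy (left) and kappa (right) segments, with 1 point per library and a line at the group median. The 5 old knockout libraries sit between 10.9 and 14.3 effective heavy segments, and old Pparafl/fl libraries spread from 3.1 to 29.4.

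Despite higher levels, old aortas did not show more segments at equal depth. Segments with at least 1 count numbered 166 to 179 in young Pparafl/fl, 160 to 183 in old Pparafl/fl and 158 to 174 in the old knockout, and 160 to 174 in young knockout replicates 2, 3 and 5. Young knockout replicates 1 and 4 showed 47 and 64. When each library was thinned to 1000 variable counts, young Pparafl/fl libraries showed 120 to 135 segments. Old Pparafl/fl libraries showed 124, 110, 110, 92.9 and 108, and old knockout libraries 104, 125, 114, 90.5 and 123. Young knockout replicates 2 to 5 showed 144, 138, 63.9 and 132, and replicate 1 was left out with 396 counts.

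Which segments were common was only moderately shared between aortas. Spearman's rho of heavy segment shares, given as a description over pairs of libraries and without young knockout replicates 1 and 4, had a median of 0.523 among 2-month libraries, 0.471 among 28-month libraries and 0.498 between the ages. For kappa segments the medians were 0.571, 0.455 and 0.486. The Ighv1 family, the largest with 53 segments, held a median of 54.4% of heavy counts in young Pparafl/fl, 57% in the young knockout, 64.8% in old Pparafl/fl and 67.6% in the old knockout, with overlapping ranges. The 37 heavy segments farthest from the joining segments held a median of 37.2% in young and 39.2% in old Pparafl/fl, and 36.4% in the young and 53.5% in the old knockout, also overlapping. Segments with a high mean level lay along the whole length of both loci.

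**Figure D4:**
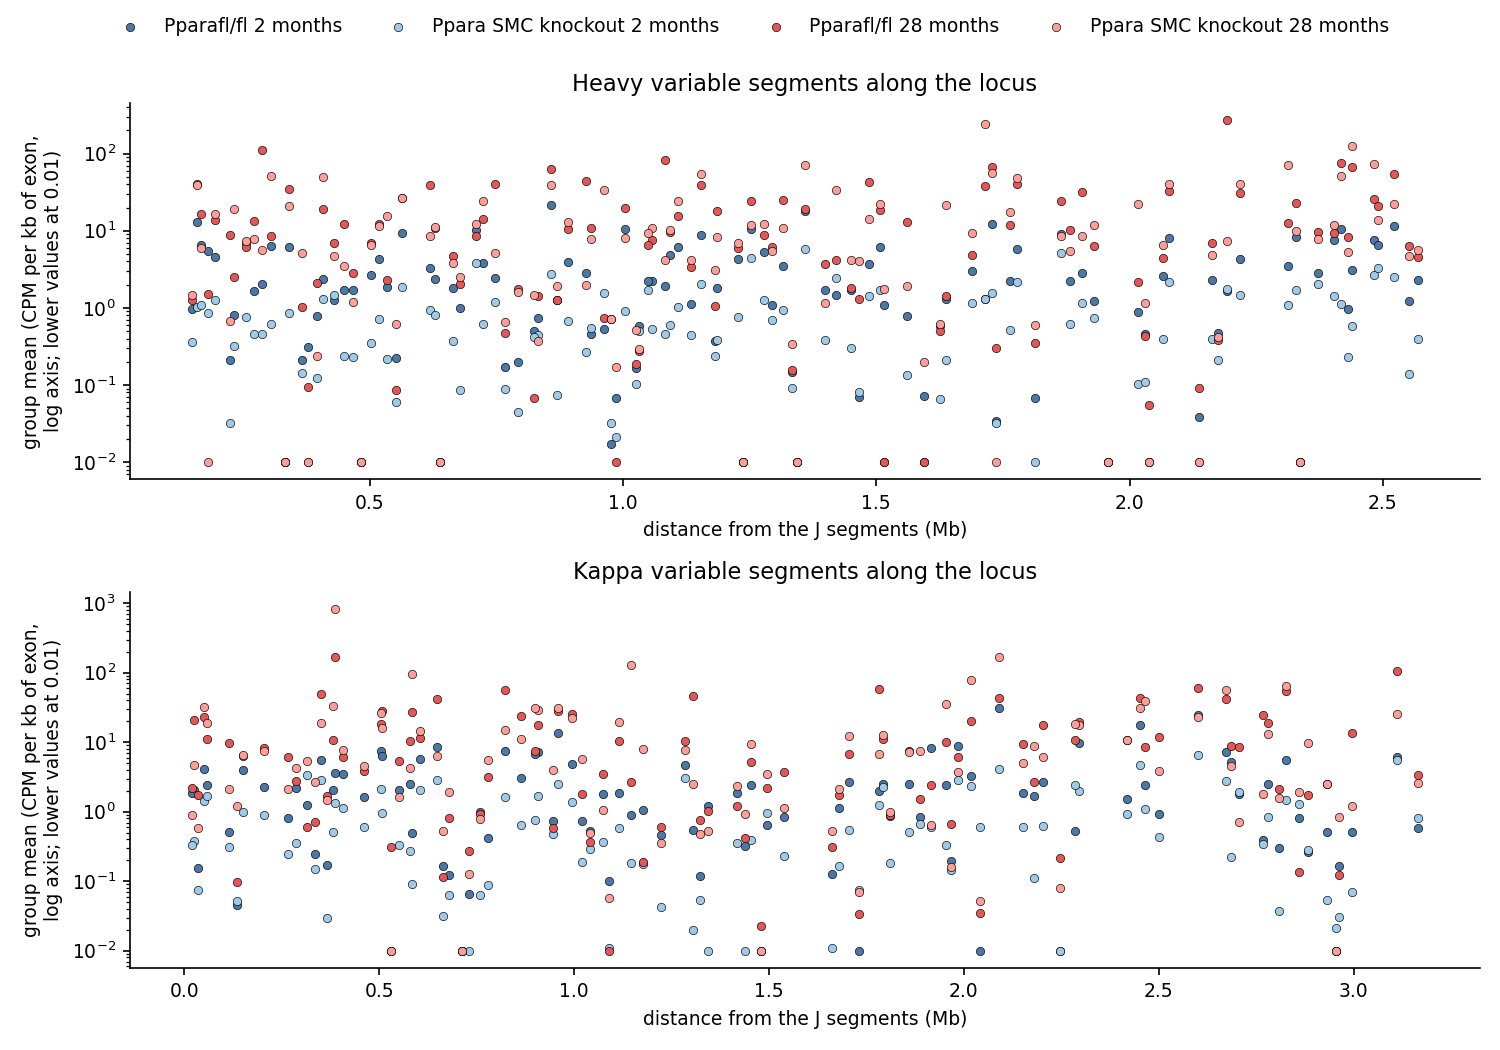
Group mean level of each heavy (top) and kappa (bottom) segment in CPM per kilobase of exon (log axis, lower values drawn at 0.01) against its distance from the joining segments in Mb, coloured by group. Levels differ widely between neighbouring segments, and red points (28 months) mostly lie above blue points (2 months).

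The age comparison within Pparafl/fl asks which single segments differ between 28 and 2 months. In edgeR's quasi-likelihood test across all 20989 genes that passed the filter on low counts, 4 of the 159 segments tested were called higher (Benjamini-Hochberg adjusted p under 0.05) and 0 lower, beside 2.06% of all genes called higher and 2.48% lower. The segments' share is near the background. The median log2 fold change of tested segments was 1.58, and that of all genes 0.06. Segments that passed the filter only through the old group had to differ, so the median describes and supports nothing by itself. In 13 segments the groups did not overlap, with the higher group at 28 months, beside 5.37% of all genes.

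The 4 called segments were Igkv6-20, Igkv3-7, Ighv7-3 and Igkv6-17. Igkv6-20 had 0.789, 2.2, 2.67, 0.449 and 0.656 CPM at 2 months and 11.9, 19, 5.49, 226 and 55.3 CPM at 28 months. The ages did not overlap, and replicate 4 stood highest. Its log2 fold change was 5.37 (SE 1.11, adjusted p of 0.0257 in edgeR), and 3.94 (adjusted p of 0.0362) without that library. It lost its call when any 1 of the 5 young libraries was left out, with adjusted p of up to 0.0729. The count of segments called higher was 2 without young replicate 1, 1 without young replicate 3, 4 or 5, and 14 without old replicate 1, where 1 was called lower, and 2 were called lower without old replicate 3. For these fits the share of all genes called is not given.

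Igkv3-7 had 0.177, 0.362, 0.0644, 0.192 and 0.137 CPM at 2 months and 0.899, 4.68, 5.42, 1.41 and 5.08 CPM at 28 months. All old libraries lay above all young ones, with a log2 fold change of 4.09 (SE 0.65, adjusted p of 0.00887 in edgeR). Ighv7-3 had 2.2, 1.89, 0.837, 1.17 and 0.807 CPM at 2 months and 4.76, 7.24, 3.36, 5.61 and 4.28 CPM at 28 months. Its change was the smallest and most even of the 4 (log2 fold change 1.75, SE 0.35, adjusted p of 0.0225 in edgeR). Igkv6-17 went from 0.313 to 3.56 CPM at 2 months to 7.85 to 45.3 CPM at 28 months (log2 fold change 2.98, SE 0.68, adjusted p of 0.0381 in edgeR).

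In the knockout, 16 of 141 tested segments (11.3%) were called higher at 28 months and 0 lower in edgeR's quasi-likelihood test, beside 1.87% of all 20950 genes called higher and 2.59% lower. The median log2 fold change of tested segments was 3.46, and that of all genes 0.06. As in Pparafl/fl, segments that passed the filter only through the old group had to differ, so this median supports nothing by itself. The same limit bears on the counts of called and of non-overlapping segments. In 35 segments the ages did not overlap, with the higher group at 28 months, beside 5.72% of all genes. Only 1 of these calls was made without young knockout replicate 4, and 1 without replicates 1 and 4 together, the libraries low in lymphoid RNA. That one was Igkv14-111, which was called in each of the 16 alternative fits. The count of segments called higher was 5 without young replicate 1 or 3, 2 without young replicate 5, and 3, 2, 4, 3 and 9 without old replicates 1 to 5. Here too the share of all genes in each fit is not given.

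Igkv14-111 (log2 fold change 5.00, SE 0.54, adjusted p of 0.0039 in edgeR) had 0.216, 1.04, 0.15, 0.299 and 0.332 CPM at 2 months and 17, 15.1, 9.66, 14.7 and 16 CPM at 28 months in the knockout. It was even across all 5 old knockout libraries. Without young replicates 1 and 4 the estimate was 4.71 (adjusted p of 0.0392 in edgeR). In Pparafl/fl it had 0.26, 0.152, 12.4, 2.15 and 0.56 CPM at 28 months, overlapping with 0.226 to 2.58 CPM at 2 months. There it was not called (log2 fold change 1.72, SE 1.23, adjusted p of 0.438 in edgeR), and the difference between the genotypes in its age effect had an adjusted p of 0.764.

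Among the other calls in the knockout, Igkv14-126 had 0.162 to 1.02 CPM at 2 months and 45.1, 1.8, 43.1, 6.19 and 21 CPM at 28 months (log2 fold change 5.27, SE 0.94, adjusted p of 0.0197 in edgeR). Ighv1-80 had 0.036 to 1.84 CPM and 70.4, 13, 5.68, 28.6 and 9.29 CPM. Ighv11-2 had 0.0969 to 0.986 CPM and 5.33, 4.16, 4.04, 4.51 and 1.43 CPM. In these the ages did not overlap.

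Igkv4-57 and Ighv1-78 had the largest fold changes among the called segments, and the size of both rested largely on knockout replicate 4 at 28 months. Without that library Igkv4-57 kept its call and Ighv1-78 lost it. Igkv4-57 had 3.23, 2.28, 1.26, 214 and 3.59 CPM at 28 months (log2 fold change 9.07, SE 2.02, adjusted p of 0.0359 in edgeR), and 5.05 (adjusted p of 0.0478) without that library. Ighv1-78 had 5.53, 2.29, 5.44, 217 and 3.76 CPM (log2 fold change 7.60, SE 1.79, adjusted p of 0.0428 in edgeR), and 4.18 (adjusted p of 0.0715) without it. The remaining called segments, Ighv2-2, Ighv1-37, Ighv9-2, Ighv1-77, Igkv11-125, Igkv4-80, Igkv12-44, Igkv1-99, Igkv8-30 and Igkv3-4, had log2 fold changes between 2.68 and 6.18. Ages overlapped in Igkv8-30 alone among the 16.

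No segment was called in both genotypes. Igkv6-20 in the knockout had 0.036, 0.541, 1.82, 0.057 and 0.0692 CPM at 2 months and 22.4, 6.29, 3.01, 1517 and 1 CPM at 28 months. The last library overlapped with the young ones, and the log2 fold change of 9.14 (SE 2.47) had an adjusted p of 0.062 in edgeR. Ighv7-3 in the knockout had a log2 fold change of 5.20 (SE 1.35, adjusted p of 0.0556 in edgeR). Of the 135 segments tested in both age comparisons, 123 had a positive log2 fold change in each genotype. The share of all genes positive in both is not given beside this count. The segments of a library share its B lineage content and are not independent of each other. The young knockout libraries low in lymphoid RNA also bear on the knockout values. The count of 123 is thus a description and does not measure agreement between the genotypes.

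**Figure D5:**
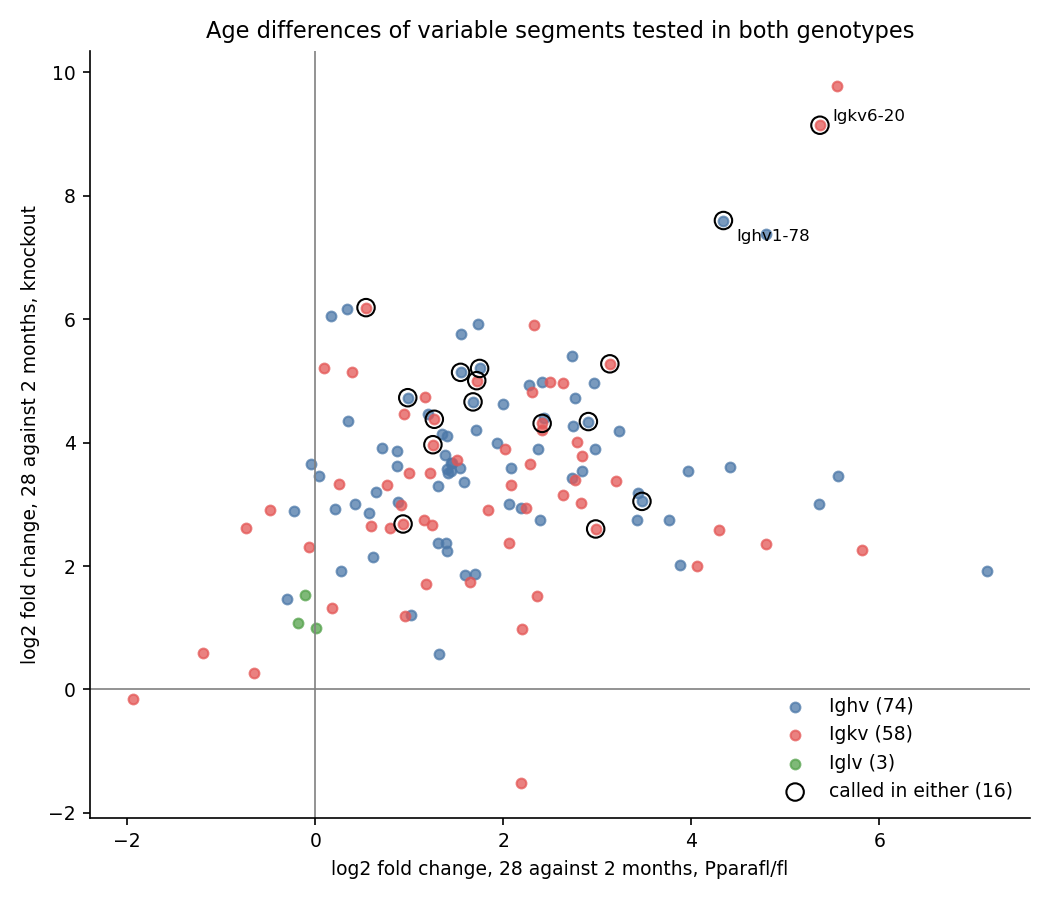
Log2 fold change of 28 against 2 months in Pparafl/fl (x) and the knockout (y) for the 135 segments tested in both, coloured by locus, with circles around the 16 called in either. Points lie mostly in the upper right, and the 3 lambda segments lie near 0 on the x axis.

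The genotype comparison at 2 months asks whether smooth muscle loss of Ppara goes with other variable segment levels in young aorta. Of 134 tested segments, 0 were called higher and 0 lower, beside 0 and 0.00485% of all 20598 genes. At an unadjusted p under 0.05, edgeR gave 32 segments lower in the knockout and 0 higher, beside 4.28% of all genes lower and 5.82% higher. The DESeq2 Wald test called 7 lower, for which the share of all genes is not given. The median log2 fold change was -1.87 for tested segments and 0.01 for all genes. Segments that passed the filter only through Pparafl/fl had to differ, so this median too supports nothing by itself. In 6 tested segments the knockout lay below Pparafl/fl without overlap, beside 1.14% of all genes, among them Igkv6-25 (log2 fold change -2.74, SE 0.92, adjusted p of 0.378 in edgeR) and Ighv4-1 (log2 fold change -2.57, SE 0.80, adjusted p of 0.344), named after their values were seen. Young knockout replicates 1 and 4 bear on each of these values, and 0 segments were called without them.

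At 28 months, 0 of 166 tested segments were called in either direction, beside 0% of all 21468 genes. At an unadjusted p under 0.05 edgeR gave 3 higher and 12 lower in the knockout, beside 1.23% and 1.98% of all genes. The DESeq2 Wald test called 1 higher and 3 lower, with the share of all genes not given. The median log2 fold change was 0.07. The test of whether the age effect differs between the genotypes called 0 of 182 segments, beside 0% of all 23624 genes. It gave 20 segments at an unadjusted p under 0.05, beside 6.06% of all genes. The DESeq2 Wald test called 3, again without the share of all genes.

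Summed markers of B cells overlapped between the ages in both genotypes, unlike the summed variable segments. Within the young knockout, replicates 1 and 4 were lowest in both. The 5 markers Ms4a1, Cd79a, Cd79b, Cd22 and Pax5 summed to 190 to 386 CPM in young Pparafl/fl and 68.7 to 289 CPM in old Pparafl/fl, and to 5.53 to 367 CPM and 89.5 to 1160 CPM in the young and old knockout. Per B cell marker count there were 0.586 to 1.74 variable counts in young Pparafl/fl and 3.41 to 27.4 in old Pparafl/fl, without overlap. The ratio was 0.381 to 3.05 in the young knockout and 0.718 to 7.63 in the old, with overlap. Of 20 genes of the mature B cell list, 0 were called in any of the 4 comparisons in edgeR, with 5 lower in old Pparafl/fl at an unadjusted p under 0.05, beside 10.4% of all genes lower. Ebf1, a B cell regulator also expressed in fat cells, was the most abundant of the list and had a log2 fold change with age of -0.24 (adjusted p of 0.315 in edgeR) in Pparafl/fl. Ms4a1, which encodes the surface protein CD20, had one of -0.07 (adjusted p of 0.929).

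A few genes of the plasma cell programme rose, and a sum over 6 plasma cell markers overlapped between the ages in both genotypes. That sum did not follow Mzb1, a plasma cell gene, in the young knockout libraries low in lymphoid RNA. Replicates 1 and 4 held 169 and 176 CPM of it, near the 192 to 228 CPM of the others. Their Mzb1 level was 0.432 and 0.0855 CPM, beside 1.41 to 5.02 CPM. The overlap of the sum is thus a weak guide to plasma cell content. The sum was 139 to 318 CPM in young and 142 to 544 CPM in old Pparafl/fl. In the young and old knockout it was 169 to 228 and 168 to 660 CPM, and both genotypes had the higher median at 28 months. Of 19 genes, 3 were called higher with age in Pparafl/fl and 2 in the knockout in edgeR, beside 2.06% and 1.87% of all genes, and 0 were called lower. Mzb1, a chaperone of antibody assembly, rose from 3.44 to 7.56 CPM to 10.1 to 51.9 CPM in Pparafl/fl (log2 fold change 2.08, SE 0.43, adjusted p of 0.0262 in edgeR). In the knockout it rose from 0.0855 to 5.02 CPM to 12.9 to 140 CPM (log2 fold change 4.43, SE 1.09, adjusted p of 0.0477 in edgeR). Eaf2 rose in both genotypes, with log2 fold changes of 1.84 and 3.16 (adjusted p of 0.00242 and 0.0414 in edgeR). Prdm1, which encodes the plasma cell regulator Blimp-1, rose in Pparafl/fl by a log2 fold change of 1.17 (adjusted p of 0.0407 in edgeR). Hsp90b1, a chaperone of the endoplasmic reticulum, and Irf4, a regulator also expressed outside the B lineage, were the most abundant of the list and were not called.

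In the recombination and diversification list 0 of 16 genes tested in Pparafl/fl and 0 of 14 tested in the knockout were called with age in edgeR, with 3 and 4 higher at an unadjusted p under 0.05, beside 12.4% and 11.7% of all genes. The most abundant members, the DNA end-joining genes Prkdc and Xrcc6, had log2 fold changes of 0.18 and 0.19 in Pparafl/fl. In the lymphoid tissue list, 1 of 15 genes was called, in the knockout with age, beside 1.87% of all genes called higher there. A single call among 15 genes cannot show an excess in the list. The gene was Tnfsf13b, the B cell survival factor BAFF. It rose from 2.41 to 5.87 CPM to 9.17 to 36.3 CPM (log2 fold change 1.87, SE 0.41, adjusted p of 0.0325 in edgeR). Cxcl13, a chemokine that attracts B cells, had log2 fold changes of 1.35 and 2.44 (adjusted p of 0.168 and 0.154 in edgeR), and the more abundant chemokine gene Cxcl12 had 0.22 and 0.43 (adjusted p of 0.595 and 0.202). Variable segments of the T cell receptor, built by the same recombination, had 0 calls among 42 tested in Pparafl/fl and 28 in the knockout in edgeR, with 1 higher in each at an unadjusted p under 0.05, and median log2 fold changes with age of 0.58 and 0.95.

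The mix of heavy constant genes differed between the ages. IgG genes held 5.57 to 23.8% of heavy constant counts in young and 53.6 to 88.5% in old Pparafl/fl, and 7.36 to 21% and 34.8 to 76.8% in the young and old knockout, without overlap in either genotype. Ighm, the IgM gene, had 188 to 364 CPM in young and 812 to 1211 CPM in old Pparafl/fl. Ighd, the IgD gene expressed by naive B cells, had 71.6 to 150 CPM in young and 10.1 to 76.5 CPM in old Pparafl/fl, with the lower median at 28 months and a narrow overlap. Igha, the IgA gene, had a median of 230 CPM in young and 94.5 CPM in old Pparafl/fl, with overlap. In the knockout it went the other way, with a median of 12.1 CPM in young and 105 CPM in old, also with overlap. Young knockout replicates 1 and 4 were again the lowest, at 1.15 and 2.29 CPM. Igkc, the kappa constant gene, had 0 counts in young knockout replicates 1 and 4 beside 186 and 499 kappa variable counts, and only 664 counts in old knockout replicate 3 beside 21202 kappa variable counts.

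Library totals lay between 50046288 and 79385413 counts, and the 216 segments held between 396 and 342068 counts of a library. Ppara itself overlapped between the genotypes at both ages, at 84.6 to 178 CPM in Pparafl/fl and 70.5 to 127 CPM in the knockout at 2 months, and at 25.7 to 88.7 and 54.5 to 98.2 CPM at 28 months, where the knockout median was the higher (83.3 against 78.2 CPM). This is a limited check, since whole aorta holds other cells than smooth muscle. Smooth muscle markers were present in all libraries, at 1012 to 9179 CPM summed over 10 genes at 2 months and 260 to 855 CPM at 28 months. All old libraries thus lay below all young ones. The samples also held RNA of other tissue, with the highest sums for fat cells in all but 1 library. In Pparafl/fl replicate 4 at 28 months, skeletal muscle markers (14077 CPM) exceeded fat cell markers (5612 CPM). The 10 adipocyte markers summed to 25362 to 55589 CPM in young and 5612 to 55345 CPM in old Pparafl/fl. In the young and old knockout they summed to 36011 to 52146 and 4676 to 39591 CPM, lowest in old replicate 4. The 10 airway epithelium markers summed to 12.7 to 25.6 CPM in young and 108 to 5467 CPM in old Pparafl/fl, and to 15.1 to 182 and 25.2 to 7961 CPM in the knockout. The 6 skeletal muscle markers summed to 7.93 to 2214 and 2048 to 14077 CPM in Pparafl/fl, and to 6.31 to 3707 and 328 to 3975 CPM in the knockout. Markers of lymph node stroma and vessels summed to 46.7 to 181 and 91.4 to 251 CPM in young and old Pparafl/fl, and to 5.74 to 161 and 80.6 to 574 CPM in the knockout. The part of these tissues in the age difference of the variable segments was not tested. Of 84 segments with at least 500 counts in 2 libraries, 76 (90.5%) had at most 1 count in another library, and 52 (61.9%) did so without young knockout replicates 1 and 4. For multi-exon protein-coding genes the shares were 1.66% and 1.42%.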

How the data were processed

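Counts of RNA-seq reads per gene were deposited by the authors for 20 aorta libraries in 4 tables of all genes, which agreed for each library held in more than 1 table. The submitters' processing notes name GRCm38 as the build and list DESeq 1.8.3, HISAT and featureCounts 1.5.0-p3, and a stranded library kit is named per the labels' protocols. None of the 216 segments is in the authors' 8 lists of changed genes. Members and gene lists were chosen with earlier results of these data known.

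Each pair of groups was fitted alone across all genes in edgeR 4.0.16 (R 4.3.3) with TMM scaling, the filterByExpr filter, the two-sided quasi-likelihood test and Benjamini-Hochberg adjustment at 0.05, and the interaction in 1 fit of 20 libraries. The fit was tested on simulated data. CPM per library use the total count. Each SE was taken as the size of the log2 fold change over the square root of its F statistic. Breadth was thinned by the hypergeometric expectation. Alternatives were DESeq2 1.42.0, its size factors, other filters and libraries left out. Coordinates, exon lengths and sequences came from GENCODE M21, which held all 216 segments. Named segments were the 8 most abundant per kilobase of the heavy and kappa loci, all lambda segments, the first in each library and up to 10 called per comparison and direction with the smallest p, beside list members called or most abundant. Others were chosen after their values were seen. Total counts of 50046288 to 79385413 per library set the counting error, but the spread between libraries (biological coefficient of variation 0.53 to 0.68) sets the precision. Genes withheld for evaluation are left out of the text and of the B cell marker sum.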

Additional observations from a re-analysis of the deposited data

Results flagged for a closer look

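Several libraries stood apart from the other 4 of their group by Dixon's test at the 95% level, which flags about 1 in 20 groups without any cause; 26 of the 111 groups of values tested were flagged. Knockout replicate 4 at 28 months had a summed variable level of 4309 CPM (next 833 CPM) and 58.6% of its kappa counts in Igkv6-20 (next 15.3% in the first segment). It was also the highest of its group in summed T cell (518 CPM, next 206), macrophage (4156 CPM, next 2556) and lymph node stroma and vessel markers (574 CPM, next 282). Its B cell markers, at 564 CPM, lay below the 1160 CPM of replicate 1. In that library Igkv6-20 reached 1517 CPM, Ighv1-78 217 CPM, Igkv4-57 214 CPM, Ighv2-2 41.8 CPM, Igkv3-4 34.1 CPM, Igkv1-99 10.1 CPM and Ighv1-37 4.07 CPM, each far above the other 4. As shares of their locus counts there, Igkv3-4 (1.32%), Igkv1-99 (0.389%) and Ighv1-37 (0.24%) lay within the range of the other 4. Ighv2-2 (2.47%, next 2.23%) lay just above it. The flags of these segments thus largely restate the high summed level of the library.

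Knockout replicate 3 at 28 months had 3193 kappa variable counts per 100 Igkc counts (next 26.9) and 158 segments with a count, the fewest of its group. Pparafl/fl replicate 3 at 28 months had 27.4 variable counts per B cell marker count (next 5.82), and young knockout replicate 4 had 3.05 (next 1.14). Pparafl/fl replicate 4 at 2 months had a lambda share of 32.7% (next 8.35%).

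Single segments stood out in other libraries. In Pparafl/fl at 28 months these were Igkv6-20 at 226 CPM in replicate 4, Ighv1-78 at 101 CPM and Igkv6-17 at 45.3 CPM in replicate 5, Igkv12-44 at 22.2 CPM in replicate 1, Igkv14-111 at 12.4 CPM in replicate 3 and Ighv1-77 at 9.08 CPM in replicate 2. In the knockout Igkv12-44 stood at 19.5 CPM in replicate 5 at 28 months, and Igkv6-20 at 1.82 CPM in replicate 3 and Igkv14-111 at 1.04 CPM in replicate 2 at 2 months. In young Pparafl/fl Igkv12-44 stood at 9.21 CPM in replicate 1, Igkv1-99 at 2.19 CPM in replicate 5 and Igkv4-57 at 1.37 CPM in replicate 3. The causes were not tested.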

How the results depend on the processing

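Counts of calls depended on the test and filter. They stand here without the share of all genes called in the same fit, so they cannot show an excess of segments. With the DESeq2 Wald test, 36 segments were higher and 1 lower with age in Pparafl/fl, 66 higher and 1 lower with age in the knockout, 7 lower in the knockout at 2 months, 1 higher and 3 lower at 28 months, and 3 had a higher age effect in the knockout. With age in the knockout, 3 were higher without a filter, 10 with a mean of at least 50 counts, 29 in 1 fit of 20 libraries, and 1 without young replicates 1 and 4, an alternative chosen after seeing the data. Leaving out 1 library gave 1 to 14 higher and 0 to 2 lower segments with age in Pparafl/fl, and 1 to 11 higher in the knockout. No called segment changed direction in these fits. Genotype comparisons gave 0 calls in each edgeR alternative. Summed levels and effective numbers moved by less than 1 SD of their group under each alternative run. Segments detected had medians of 171, 176 and 171 in young Pparafl/fl, old Pparafl/fl and the old knockout, which became 141, 143 and 151 at 10 counts and 132, 110 and 114 at equal depth; these differ by construction. No paired analysis was possible because the labels link no libraries between the groups. Replicate numbers used here follow the order of the deposited samples within each group and do not come from the labels. Depth limits young knockout replicate 1, with 396 variable counts, most.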
